A study of Mus musculus with 6 samples.

Results

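A set of 10 genes of the Notch pathway was followed through 4 RNA libraries of mouse satellite cells, which are the stem cells that repair adult skeletal muscle. The 10 genes were taken by symbol from a named list, and all 10 were found among the 24067 symbols shared by the deposited expression tables. They were the receptors Notch1, Notch2 and Notch3, the ligands Jag1, Jag2 and Dll1, the DNA-binding mediator Rbpj, and the target genes Hes1, Hey1 and Heyl. The libraries were 1 of activated cells (ASC, after 36 h in culture) labelled iKo for Yy1, 1 of ASC labelled Wt, and 1 each of freshly isolated cells (FISC) labelled iKo for Yy1 and labelled Wt. These are called iKO and WT below. Each group was 1 library of polyadenylated RNA, and no difference between groups carries an SD or a p-value. The labels give no driver, allele, inducing agent, age or sex for the animals, and the culture medium was F10 with fetal bovine serum and antibiotics. A single YY1 chromatin immunoprecipitation library and its input, both from ASC labelled C57, gave a list of 2031 peaks.

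Notch signalling passes between touching cells. A Jagged or Delta-like ligand on the sending cell binds a Notch receptor, the receptor is cut by an ADAM protease and then by gamma-secretase, and the freed intracellular domain joins RBPJ and a Mastermind coactivator on DNA. The best known targets are the Hes and Hey genes, which encode transcriptional repressors of the basic helix-loop-helix type. In adult muscle the pathway is known for keeping satellite cells quiescent and for holding back differentiation, and Notch signalling is known to be active in quiescent cells and to decline as they enter the myogenic programme.

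The targeted gene was checked first. Yy1, encoding a zinc finger transcription factor (chromosome 12, 110031521 to 110054842, mm9), stood at 2.03 FPKM in ASC iKO, against 55.2 FPKM in ASC WT. In freshly isolated cells it stood at 20.1 FPKM in FISC iKO, against 51.0 FPKM in FISC WT. Yy1 was thus lower in both iKO libraries and by far less so before culture. All 9 satellite cell markers examined were above 0 in every library, with sums of 1038 FPKM in ASC iKO, 1214 in ASC WT, 2652 in FISC iKO and 2848 in FISC WT. In each genotype 8 of the 9 had lower FPKM after culture, and Myod1 was the exception, at 598 FPKM in ASC iKO and 698 in ASC WT, against 558 in FISC iKO and 411 in FISC WT. FPKM counts fragments relative to transcript length and library size, so levels can be compared between genes. Total depth is unknown. The commonest ratio among low values would put the ASC iKO library at 0.666 reads per read of ASC WT, and the FISC iKO library at 1.00 reads per read of FISC WT, but 18.8% of the low genes in ASC and 28.0% in FISC lay at that ratio, so both are rough estimates.

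The sequences around the gene start are shown for Jag2, Notch3 and Rbpj, because these were the members with a YY1 peak summit in or within 2 kb of the gene locus. Each window runs from 250 bases before to 50 bases after the RefSeq gene start (GRCm38.p6). It lies at chr12:112929446-112929745 on the minus strand for Jag2, at chr17:32166841-32167140 on the minus strand for Notch3, and at chr5:53590096-53590395 on the plus strand for Rbpj, which has a second listed start. Capitals mark the RBPJ core TGGGAA or its reverse complement TTCCCA, which occurred in the Rbpj window alone among these 3.
Jag2: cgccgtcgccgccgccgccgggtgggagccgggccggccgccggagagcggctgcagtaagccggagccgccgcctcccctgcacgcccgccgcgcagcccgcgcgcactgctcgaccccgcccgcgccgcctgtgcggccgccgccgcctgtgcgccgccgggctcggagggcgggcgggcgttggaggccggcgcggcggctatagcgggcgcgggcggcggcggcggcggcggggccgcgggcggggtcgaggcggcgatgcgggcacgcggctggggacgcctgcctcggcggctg
Notch3: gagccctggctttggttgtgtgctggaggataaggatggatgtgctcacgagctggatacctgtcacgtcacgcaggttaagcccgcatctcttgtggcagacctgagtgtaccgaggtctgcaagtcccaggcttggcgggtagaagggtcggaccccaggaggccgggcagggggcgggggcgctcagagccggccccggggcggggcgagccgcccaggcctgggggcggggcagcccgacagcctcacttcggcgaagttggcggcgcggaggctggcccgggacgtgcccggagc
Rbpj: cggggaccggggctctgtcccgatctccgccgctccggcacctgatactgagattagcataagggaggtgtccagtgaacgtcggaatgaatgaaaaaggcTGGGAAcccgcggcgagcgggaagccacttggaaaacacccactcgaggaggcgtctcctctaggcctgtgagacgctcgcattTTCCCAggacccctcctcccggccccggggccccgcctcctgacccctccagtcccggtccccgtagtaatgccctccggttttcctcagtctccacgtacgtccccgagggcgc

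Promoter windows were listed for 7 of the 10 members, in 9 entries. None was listed for the targets Hes1, Hey1 and Heyl, so their promoters were not searched. The RBPJ core was found, on either strand, in the entries of 1 member, Rbpj itself, and in 25.6% of all 32851 promoter windows. A YY1 motif, AANATGGC on either strand, was found in 0 of the 7 members' windows and in 6.05% of all windows. A match is a match of letters only, and a window without one says nothing about binding elsewhere.

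The receptors were high in fresh cells and low after culture, most of all Notch3. Notch3 (chromosome 17, 32257838 to 32303797, mm9), a receptor also known from pericytes and vascular smooth muscle, stood at 1.44 FPKM in ASC iKO and 3.53 in ASC WT, against 130 in FISC iKO and 131 in FISC WT. Notch1 (chromosome 2, 26313422 to 26359342), the receptor most studied in satellite cell activation, stood at 4.22 FPKM in ASC iKO and 8.54 in ASC WT, against 29.2 in FISC iKO and 26.4 in FISC WT. Notch2 (chromosome 3, 97817461 to 97954290) was the flattest of the receptors, at 9.45 FPKM in ASC iKO, 18.7 in ASC WT, 25.6 in FISC iKO and 22.0 in FISC WT. Among the 3 receptors the ASC iKO library held the lowest value each time, and the FISC libraries held the highest values.

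The ligands did not share a direction between the states. Jag2 (chromosome 12, 114146801 to 114167706) stood at 13.8 FPKM in ASC iKO and 28.2 in ASC WT, against 2.21 in FISC iKO and 2.42 in FISC WT, and was the only one of the 10 members that was higher in both cultured libraries. Jag1 (chromosome 2, 136907187 to 136942256) ran the other way, at 4.55 FPKM in ASC iKO and 6.71 in ASC WT, against 12.1 in FISC iKO and 20.0 in FISC WT. Dll1 (chromosome 17, 15504318 to 15512787), a ligand of the Delta family, stood at 4.06 FPKM in ASC iKO, 7.32 in ASC WT, 7.37 in FISC iKO and 6.72 in FISC WT. Dll1 differed little between states in WT, and its ASC iKO value lay below the other three.

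Rbpj (chromosome 5, 53947018 to 54048684), which carries the signal on DNA, had the highest or second highest level of the 10 genes in all 4 libraries, at 53.2 FPKM in ASC iKO, 79.9 in ASC WT, 85.6 in FISC iKO and 92.5 in FISC WT. Among the targets, Heyl (chromosome 4, 122910799 to 122927113) stood at 1.37 FPKM in ASC iKO and 1.07 in ASC WT, against 64.5 in FISC iKO and 69.4 in FISC WT. Hey1 (chromosome 3, 8663359 to 8667038) stood at 3.02 FPKM in ASC iKO and 3.22 in ASC WT, against 47.8 in FISC iKO and 44.6 in FISC WT. Hes1 (chromosome 16, 30065443 to 30067882) kept a larger part of its level, at 28.1 FPKM in ASC iKO and 15.4 in ASC WT, against 69.7 in FISC iKO and 49.0 in FISC WT. Both Hey family genes thus lay far lower in culture with little difference between the genotypes, while Hes1 was higher in iKO than in WT in each state.

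**Figure D1:**
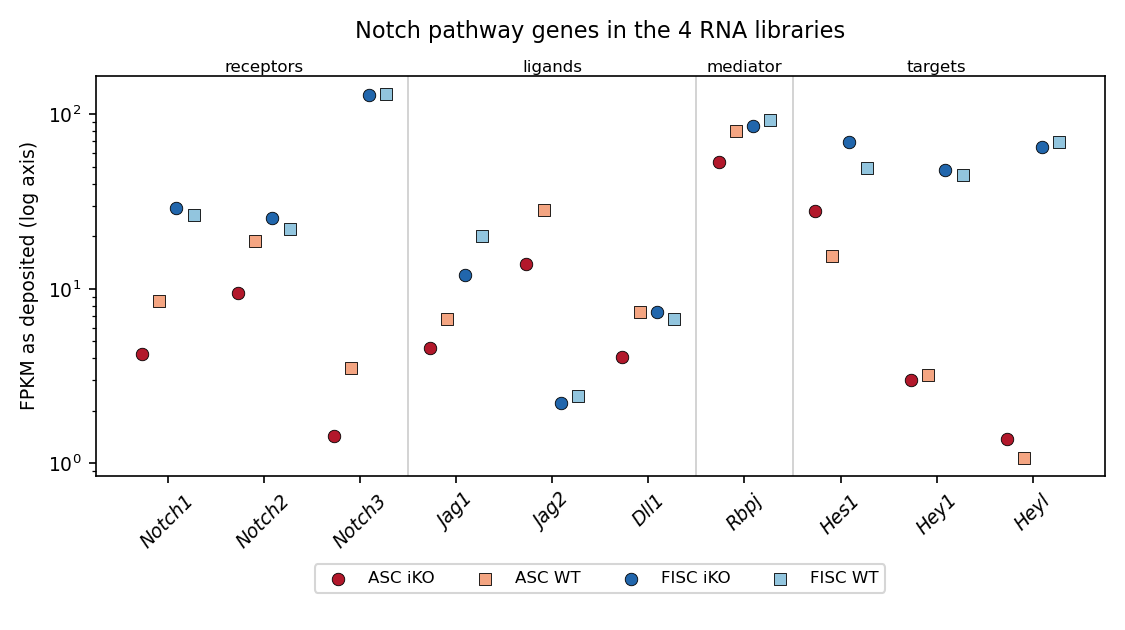
FPKM as deposited (log axis) of the 10 genes, grouped by role, with circles for iKO and squares for WT, ASC in red and FISC in blue. Notch3, Hey1 and Heyl stand between 44.6 and 131 FPKM in the FISC libraries and between 1.07 and 3.53 FPKM in the ASC libraries, while Jag2 is higher in ASC.

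The make-up of each role was compared as shares of its summed FPKM within a library, a measure that does not depend on scaling between tables. Notch3 held 9.51% of the receptor sum in ASC iKO and 11.5% in ASC WT, against 70.3% in FISC iKO and 73.0% in FISC WT. In its place Notch2 held most of the receptor sum in culture, with 62.6% in ASC iKO and 60.8% in ASC WT, against 13.9% in FISC iKO and 12.3% in FISC WT. The receptor make-up differed little between the genotypes within a state. Among the ligands, Jag2 held 61.6% in ASC iKO and 66.8% in ASC WT, against 10.2% in FISC iKO and 8.31% in FISC WT. Jag1 held 20.3% in ASC iKO and 15.9% in ASC WT, against 55.8% in FISC iKO and 68.7% in FISC WT. Jag2 therefore led the ligands in cultured cells and Jag1 in fresh cells, in both genotypes. Of the target sum, Hes1 made up 86.5% in ASC iKO and 78.1% in ASC WT, against 38.3% in FISC iKO and 30.1% in FISC WT.

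**Figure D2:**
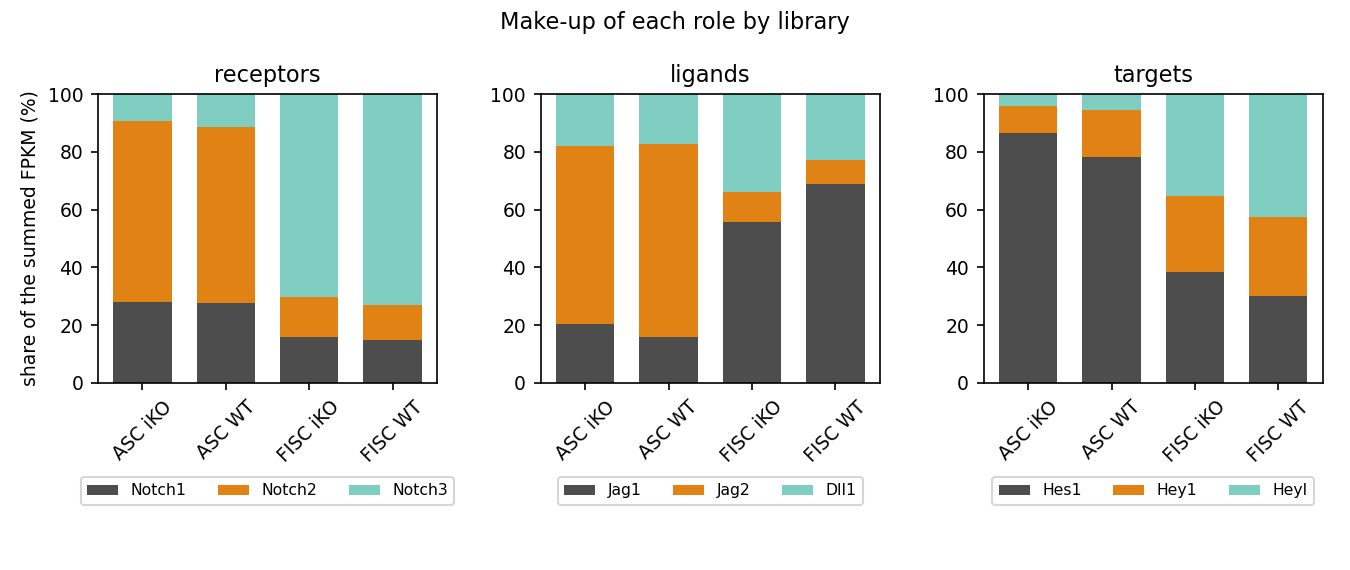
Share of the summed FPKM (%) of the 3 receptors, 3 ligands and 3 targets in each library, with 1 bar per library. Notch3 fills 70.3% and 73.0% of the receptor bar in FISC iKO and FISC WT, and Jag2 fills 61.6% and 66.8% of the ligand bar in ASC iKO and ASC WT.

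Activation was then expressed as a log2 ratio, ASC over FISC within a genotype, after each library was scaled to the same upper quartile and 1 was added to each value. The libraries come from separate tables, so these ratios are a description. In WT, 6 of the 10 members were at least 2-fold lower and 1 was at least 2-fold higher, where 21.8% and 23.1% of 11816 genes passed these limits. The lower ones in WT were Heyl (log2 ratio −5.35), Notch3 (−5.17), Hey1 (−3.73), Hes1 (−1.94), Notch1 (−1.84) and Jag1 (−1.76), and the higher one was Jag2 (2.81). Notch2 (−0.55), Rbpj (−0.54) and Dll1 (−0.19) were within 2-fold, and Dll1 was above 0 without scaling or with equal sums. The same 6 genes were at least 2-fold lower under each alternative pseudocount, filter and scaling tried. The median over the members in WT was −1.80, against 0.11 over all genes.

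In iKO, 9 of the 10 members were at least 2-fold lower in ASC than in FISC and 1 was at least 2-fold higher, where 29.2% and 21.6% of 11797 genes passed these limits. Notch3 (−6.19), Heyl (−5.23), Hey1 (−4.10) and Notch1 (−3.05) led the lower ones, followed by Notch2 (−1.89), Hes1 (−1.86), Jag1 (−1.75), Rbpj (−1.26) and Dll1 (−1.22), while Jag2 was higher (1.71). The median over the members was −1.88, against −0.13 over all genes. Without scaling between tables, Rbpj and Dll1 were within 2-fold, and 3980 genes were higher and 2427 lower in place of 2548 and 3439. Equal sums gave 1398 higher and 4788 lower genes; in ASC iKO the microRNA gene Mir762 alone was listed at 496241 of a sum of 1245942 FPKM. In WT, 2733 genes were higher and 2580 lower, against 3667 and 2027 without scaling and 4127 and 1963 with equal sums.

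Markers of other cells also differed between the states, and their part in the levels of Notch3, Hey1 and Heyl was not tested. Pericyte and smooth muscle markers other than Acta2 (6 genes) summed to 0.832 FPKM in ASC iKO and 1.69 in ASC WT, against 24.4 in FISC iKO and 24.3 in FISC WT. With Acta2, the sums of the 7 were 22.7 FPKM in ASC iKO and 38.1 in ASC WT, against 99.1 in FISC iKO and 99.5 in FISC WT. Rgs5 was listed at 0 in ASC WT. Endothelial markers (7 genes) summed to 5.81 FPKM in ASC iKO and 6.92 in ASC WT, against 16.7 in FISC iKO and 20.3 in FISC WT. Tie1 was listed at 0 in ASC iKO. Tek alone stood at 9.97 FPKM in FISC iKO and 11.5 in FISC WT. Egfl7 ran the other way, at 2.93 FPKM in ASC iKO and 3.89 in ASC WT, against 1.27 in FISC iKO and 1.65 in FISC WT. Fibro-adipogenic markers (6 genes) summed to 8.09 FPKM in ASC iKO and 11.4 in ASC WT, against 288 in FISC iKO and 331 in FISC WT. Ly6a was listed at 0 in ASC iKO. Dcn, Dpt and Col1a1 made up most of the FISC sums, while Pdgfra stood at 1.14 FPKM in FISC iKO and 1.11 in FISC WT. Schwann cell markers (4 genes) summed to 1.72 FPKM in ASC iKO and 1.50 in ASC WT, against 7.11 in FISC iKO and 7.71 in FISC WT. Differentiated muscle markers (4 genes) summed to 2.13 FPKM in ASC iKO and 4.76 in ASC WT, against 25.3 in FISC iKO and 23.0 in FISC WT, with Myog listed at 0 in both ASC libraries. Immune cell markers (7 genes) summed to 14.9 FPKM in ASC iKO and 4.23 in ASC WT, against 10.002 in FISC iKO and 9.94 in FISC WT. Ptprc, Adgre1 and Cd74 were listed at 0 in both ASC libraries and Csf1r in ASC iKO. Nearly all of the ASC iKO sum came from Cd14 and Cd68. Cd14 stood at 9.75 FPKM in ASC iKO and 2.80 in ASC WT, and Cd68 at 5.16 in ASC iKO and 1.36 in ASC WT. Notch4 and Dll4, known mainly from endothelium, were below 1 FPKM in all 4 libraries. In bulk RNA, fewer cells of a type and less RNA per cell cannot be told apart.

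In activated cells the receptors, the ligands and Rbpj were lower in iKO than in WT. With 1 FPKM added they were within 2-fold, and the 3 targets were spread around 0. The ratio is log2 of iKO over WT, with 1 FPKM added to each value. All 3 receptors were lower in ASC iKO than in ASC WT, with log2 ratios of −0.87 for Notch1, −0.92 for Notch2 and −0.89 for Notch3. The closeness of these 3 values rests on the added 1 FPKM. Without it Notch3 was 2.46-fold lower, against 2.02-fold for Notch1 and 1.98-fold for Notch2. The ligands were lower too, at −0.98 for Jag2, −0.72 for Dll1 and −0.47 for Jag1, and Rbpj stood at −0.58. Of the targets, Hes1 stood at 0.83, Heyl at 0.19 and Hey1 at −0.07. This split depended on the scale and on the targets chosen. Against genes of like locus length Hes1 came to 0.16 and Hey1 to −0.74. Of the 3 other genes listed with the targets and measured in ASC, Myc (−0.36) and Ccnd1 (−0.57) were below 0. The third, Hes6 (0.48), was above 0, and it was listed as a Hes family member, with its response to Notch not tested here. These 3 values were not set against locus length. The median was −0.87 over the 7 receptors, ligands and Rbpj and 0.19 over the 3 targets, beside 0.00 over all 11215 genes, with an interquartile range from −0.48 to 0.50.

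None of the 10 members passed 2-fold in either direction in ASC, where 8.26% of genes were at least 2-fold lower and 8.74% at least 2-fold higher. Jag2 was closest, at 1.97-fold lower. This count rests on the added 1 FPKM, because with 0.1 added Notch1, Notch3 and Jag2 were at least 2-fold lower, as were 1388 of all 11215 genes in place of 926, with 1292 higher in place of 980. With upper-quartile scaling the median over all genes shifted by −0.14, and Notch1, Notch2, Notch3 and Jag2 were past 2-fold, with 603 genes higher and 1299 lower in place of 980 and 926. Relative to the median of all genes under that scaling the members' median was −0.66, close to its value of −0.65 as deposited. The signs of all 10 members in ASC held under every alternative tried that kept the gene.

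**Figure D3:**
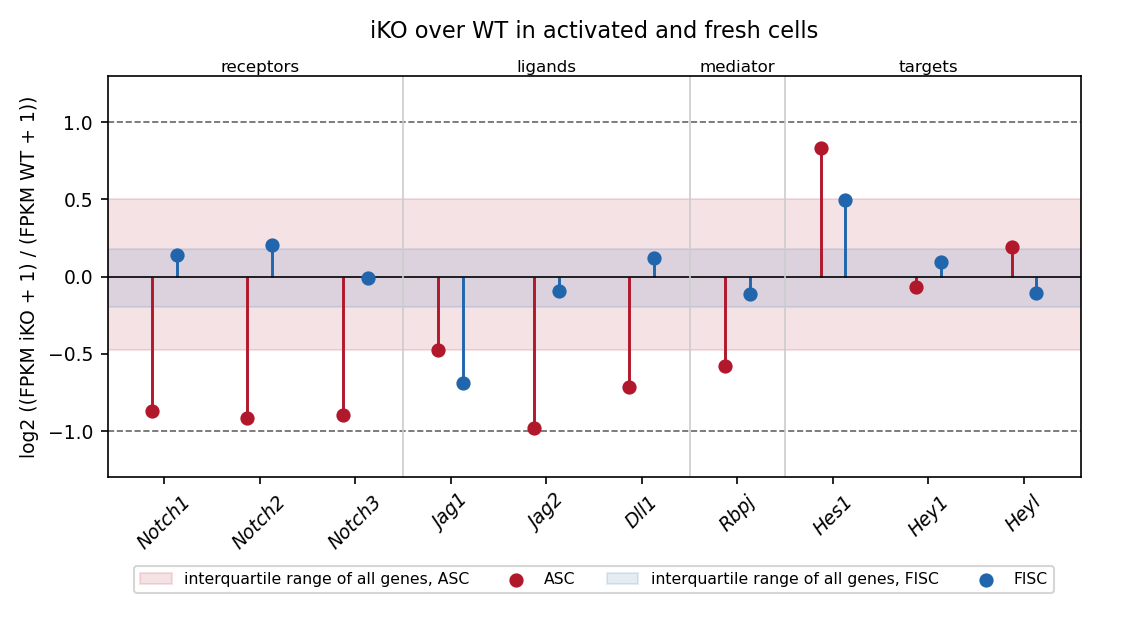
Log2 ratio of FPKM + 1, iKO over WT, for each gene in ASC (red) and FISC (blue), with shaded bands for the interquartile range of all genes and dashed lines at 2-fold. The 7 receptors, ligands and Rbpj lie between −0.98 and −0.47 in ASC, and Hes1 is the highest member in both states.

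Gene length moved with the genotype ratio in activated cells, and its part in the members' ratios was not tested beyond the values given here. Genes in the shortest decile of listed locus length had a median log2 ratio of 0.67, and those in the longest a median of −0.48. The receptors, Jag1 and Rbpj lie in deciles 7 to 10, with loci of 35.1 to 137 kb, whereas Hes1 (2.44 kb) and Hey1 (3.68 kb) lie in decile 1. Against the median of its own decile, Hes1 stood 0.16 higher and Hey1 −0.74, so the value of Hes1 was close to that of other short genes and that of Hey1 was lower. Dll1 and Jag2, of 8.47 and 20.9 kb, stood furthest below their deciles at −0.97 and −1.04. The receptors stood at −0.72 (Notch3), −0.70 (Notch1) and −0.44 (Notch2), Jag1 at −0.30 and Rbpj at −0.16, which left all 7 below their length class. Heyl stood at 0.08. On this scale Jag2 alone was past 2-fold, where 750 genes were lower and 632 higher, and the members' median was −0.57. The median was −0.70 over the 7 receptors, ligands and Rbpj and 0.08 over the 3 targets, with Hey1 below all 3 receptors.

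**Figure D4:**
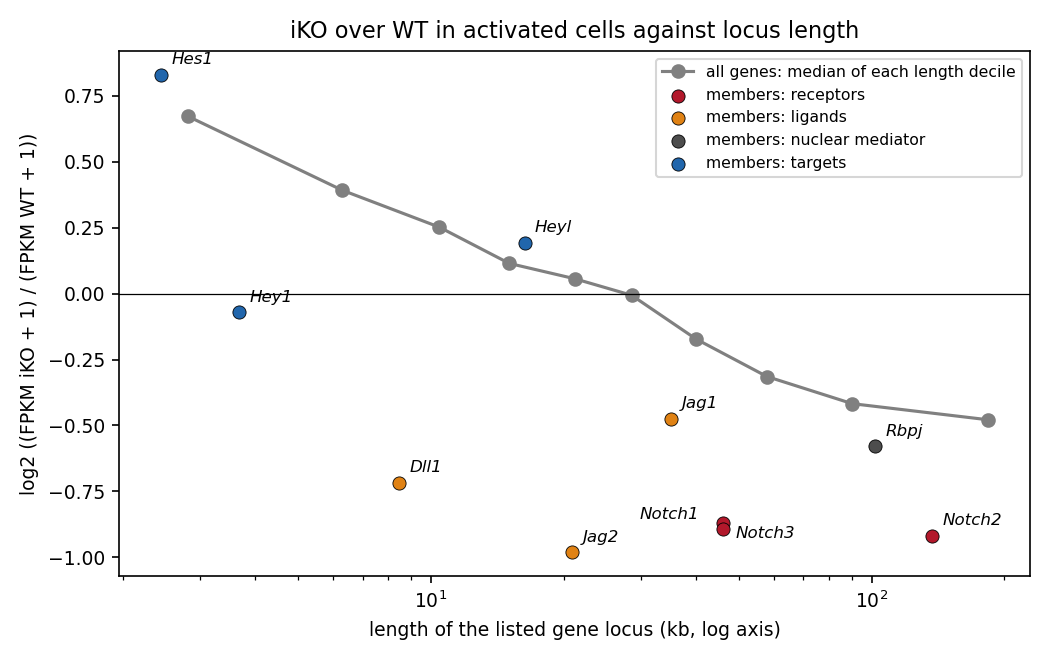
Log2 ratio of FPKM + 1, iKO over WT in ASC, against the length of the listed locus (kb, log axis), with members coloured by role and a grey line through the medians of all genes in 10 length deciles. The line runs from 0.67 to −0.48, Hes1 and Heyl lie just above it, and the other 8 members lie below it.

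Before culture the genotypes differed less. In FISC the members' median was 0.04, beside 0.00 over 11229 genes with an interquartile range from −0.19 to 0.18, and 5 members were above and 5 below 0. No member passed 2-fold, where 0.721% of genes were at least 2-fold lower and 0.677% at least 2-fold higher. Jag1 was the lowest at −0.69, 1.61-fold lower in iKO, and lower than all but 2.71% of genes. Hes1 was the highest at 0.50, 1.41-fold higher, with 95.1% of genes below it. The other 8 members lay between −0.11 (Rbpj) and 0.21 (Notch2). Notch3 was at −0.01 and changed sign with upper-quartile scaling and against its length decile. Jag1 was the only ligand or receptor outside the interquartile range of all genes on the lower side in FISC, and Notch2 lay just beyond it on the higher side.

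Set side by side, the genotype ratio in ASC minus that in FISC was −1.12 for Notch2, −1.01 for Notch1, −0.89 for Jag2, −0.88 for Notch3, −0.83 for Dll1 and −0.47 for Rbpj. It was 0.33 for Hes1, 0.30 for Heyl, 0.21 for Jag1 and −0.17 for Hey1. The median over the members was −0.65, beside 0.02 over the 10251 genes measured in both states. The receptors were thus lower with the iKO label after culture but not before it, in these libraries, and the difference between states has no test.

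The wider pathway was described from 7 lists with 55 symbols, of which 54 were in both tables and 40 had at least 1 FPKM in an ASC library. Over these 40 the median log2 ratio in ASC, iKO over WT, was −0.43, with 29 below and 11 above 0, 4 at least 2-fold lower and 1 at least 2-fold higher. Over all genes 50.2% were below 0, 8.26% at least 2-fold lower and 8.74% at least 2-fold higher, so the count of 4 in 40 was near the share of all genes. The ASC ratios of these 40 genes were not set against locus length. The 4 at least 2-fold lower were Mib1, Nedd4, Itch and Spen, with loci of 86.6 to 93.9 kb. Over all genes, length decile 9, centred on 90.3 kb, stood at −0.42 in ASC. Fbxw7, of 164 kb, was above 0. In FISC the median was 0.02 over 44 genes, with 25 above and 19 below 0 and 0 past 2-fold. The list of Notch4, Dll3, Dll4 and Dlk1 had no gene at 1 FPKM in ASC. Dlk1, an atypical ligand, stood at 0.384 FPKM in ASC iKO and 0.402 in ASC WT, against 4.14 in FISC iKO and 3.11 in FISC WT.

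Ligand endocytosis is needed for a ligand to activate its receptor, and Mib1 encodes the ubiquitin ligase that starts it. Mib1 stood at 3.41 FPKM in ASC iKO, against 17.7 FPKM in ASC WT, a log2 ratio of −2.09 and the lowest in the wider pathway, while in fresh cells it stood at 12.2 FPKM in both libraries. The table gives 3 microRNA genes the same locus as Mib1, and among the members Notch1 shares its listed locus with Mir6996 and Jag2 with Mir6941. Its relative Mib2 stood at 9.74 FPKM in ASC iKO, against 9.18 in ASC WT. The adaptor Epn2 stood at 15.9 FPKM in ASC iKO and 25.1 in ASC WT, and Epn1 at 54.1 in ASC iKO and 47.2 in ASC WT. The 4 measured genes had a median of −0.28.

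Of the genes that glycosylate the receptor, 3 were measured in ASC, with a median of −0.46 and none past 2-fold. Pofut1, which adds O-fucose, stood at 11.3 FPKM in ASC iKO and 16.4 in ASC WT, Poglut1, which adds O-glucose, at 24.9 in ASC iKO and 34.5 in ASC WT, and the Fringe gene Rfng at 14.9 in ASC iKO and 9.76 in ASC WT. Of the genes for cleavage, 9 were measured, with a median of −0.17, 6 below 0 and 1 at least 2-fold higher. That 1 was Psenen, the smallest gamma-secretase subunit, at 173 FPKM in ASC iKO, against 71.2 in ASC WT, whose locus of 1.32 kb falls among the short genes. Psen2, a catalytic subunit, stood at 7.59 FPKM in ASC iKO and 5.37 in ASC WT, the protease Furin at 23.9 in ASC iKO and 41.9 in ASC WT, and Ncstn, which shares its listed locus with Copa, at 22.1 in ASC iKO and 37.8 in ASC WT.

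Coactivators and corepressors had a median of −0.41 over 11 genes, with 9 below 0 and 1 at least 2-fold lower. That 1 was Spen, encoding a corepressor that acts with RBPJ, at 2.36 FPKM in ASC iKO, against 10.8 in ASC WT. Maml1, a Mastermind coactivator, stood at 5.70 FPKM in ASC iKO, against 12.2 in ASC WT, a log2 ratio of −0.98. Spen shares its listed locus with Zbtb17. The histone acetyltransferase gene Ep300 stood at 7.42 FPKM in ASC iKO and 14.4 in ASC WT, while Ctbp1, another corepressor, stood at 122 in ASC iKO and 105 in ASC WT. Snw1, whose locus holds 4 other listed symbols, stood at 76.9 FPKM in ASC iKO and 59.6 in ASC WT. Receptor turnover genes had a median of −0.72 over 10, with 8 below 0. The ubiquitin ligases Nedd4 and Itch were at least 2-fold lower, Nedd4 at 71.9 FPKM in ASC iKO against 203 in ASC WT, and Itch at 5.68 in ASC iKO against 17.5 in ASC WT. Fbxw7, the ligase adaptor that marks the Notch intracellular domain for destruction, ran the other way at 13.3 FPKM in ASC iKO and 7.93 in ASC WT. Dtx2, a Deltex ligase, stood at 7.42 FPKM in ASC iKO and 7.39 in ASC WT.

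The list of other targets, in which Hes6 stands as a Hes family member, gave few values. Hes5 and Hes7 were listed at 0 in both ASC libraries, and Hey2 and Nrarp, a feedback inhibitor, were below 1 FPKM in them. In FISC, Nrarp stood at 1.69 FPKM in iKO and 1.21 in WT, and Hey2 at 1.13 in iKO and 1.29 in WT. Of the 3 measured in ASC, Hes6, a family member known to counteract Hes1, stood at 79.4 FPKM in ASC iKO and 56.5 in ASC WT, against 9.95 in FISC iKO and 8.43 in FISC WT. Ccnd1, encoding cyclin D1, stood at 210 FPKM in ASC iKO and 313 in ASC WT, and Myc at 140 in ASC iKO and 181 in ASC WT.

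**Figure D5:**
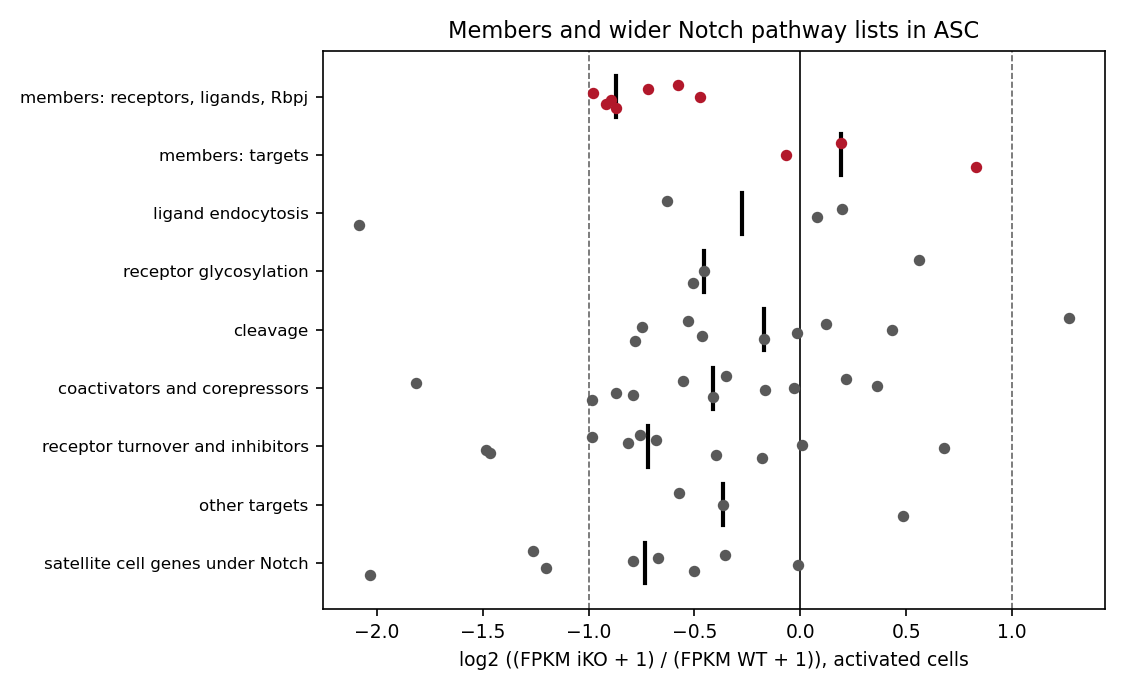
Log2 ratio of FPKM + 1, iKO over WT in ASC, with 1 point per gene, a black bar at each list's median and dashed lines at 2-fold. The members other than the targets centre on −0.87, the receptor turnover list on −0.72 and the cleavage list on −0.17, with Psenen alone past 2-fold on the higher side.

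YY1 peaks from activated cells were placed on the gene loci of the deposited table. The authors' deposited peak list gives each peak's −log10 p, −log10 q and fold, which are the authors' own values. A peak summit lay in or within 2 kb of the locus of 3 of the 10 members, where 6.93% of 24312 genes had one. Among genes with a locus of at least 20 kb the share was 10.5%, and all 3 members with a peak were among the 6 members of that length. Distances are to the ends of the listed mm9 locus, which need not be the RefSeq gene starts of the windows shown. The peak inside Notch3 (summit at 32261254) had a −log10 p of 4.84 and a −log10 q of 0.246. It lay 3.42 kb from the lower-coordinate end and 42.5 kb from the higher-coordinate end. The higher-coordinate end is on the side of the gene start, since RefSeq lists Notch3 on the minus strand. The peak inside Rbpj (summit at 53988199) lay 41.2 kb from the lower-coordinate end of the locus, with a −log10 p of 4.08 and a −log10 q of 0. The peak at Jag2 (summit at 114169156) lay 1.45 kb beyond the locus end, on the side of the gene start since RefSeq lists Jag2 on the minus strand, with a −log10 p of 4.99 and a −log10 q of 0.329. The sequence window shown for Jag2 reaches 250 bases before the RefSeq start. If that start is the locus end, the window does not extend to the peak summit.

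By −log10 p, 57.6% of the peaks in the list lay below the one at Jag2, 21.7% below the one in Notch3 and 0.542% below the one in Rbpj. None of the members had a peak with q of 0.05 or less, a level reached by 350 of the 2031 peaks and found near 2.09% of genes. In the wider pathway 8 of 54 genes had a peak in or within 2 kb, and for 4 of them it reached that level. Poglut1 had the strongest, inside the locus 16 bases from the end with the higher coordinate, with a −log10 q of 17.8 and a fold of 11.5. The others at that level were Ap2a1, Spen and Snw1, which all share their listed loci with other genes. At Ap2a1, an endocytic adaptor gene listed with Fuz, the summit lay 38 bases outside the lower-coordinate end (−log10 q 4.66). At Spen, listed with Zbtb17, it lay at the lower-coordinate end, 93.9 kb from the other end (−log10 q 2.99). At Snw1 it lay 20 bases inside the higher-coordinate end (−log10 q 2.08). Which gene of a shared locus starts at the peak was not determined. Ap2a1 stood at 28.2 FPKM in ASC iKO and 48.3 in ASC WT. Weaker peaks lay at Ep300 (1.07, 0.807 kb outside), Hes5 (1.07, 1.81 kb outside), Itch (0.246, inside) and Kat2b (0, inside). The genes with a peak at the stricter level had log2 ratios in ASC between −1.81 (Spen) and 0.36 (Snw1).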

How the data were processed

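The authors deposited FPKM per gene in 1 table for ASC and 1 for FISC, per the file headers. Per the submitters' processing notes the tools were TopHat2, MACS2 2.1.0 and Cufflinks 2.2.1 on mm9, with no roles stated; the sources used here do not give the annotation, strand setting or scaling. The deposited peak list holds the authors' score, fold (a ratio to background), −log10 p, −log10 q and summit offset. Columns were matched to libraries by state and genotype name, and every column of per-sample values was used. Locus starts count from 0 in the tables, because 8595 locus lengths then equal those of RefSeq, against 541 otherwise, and 1 was added.

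Log2 ratios used FPKM + 1 for genes with at least 1 FPKM in a compared library, a filter all 10 members passed in each comparison; the added 1 understates ratios of low genes. A 2-fold limit is a rule of size. Between tables, libraries were scaled to equal upper quartiles (percentile 75 of genes with at least 1 FPKM in all 4). Scripts (Python 3.11.15, pandas 2.3.3) were tested on simulated data. The members and lists were chosen with earlier results of these data known. All members are described; of each wider list, the 2 highest and 2 lowest ratios in ASC and genes with a peak within 2 kb are named, and other genes were chosen after their values were seen. FPKM without counts allows no counting interval or floor. A gene of the wider lists is not reported here.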

Additional observations from a re-analysis of the deposited data

Results flagged for a closer look

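The genotype ratio, iKO over WT, had opposite signs in ASC and in FISC for 5 members, and these differences were not tested. The share of all genes with opposite signs was not computed. Over all genes 50.2% were below 0 in ASC and 50.4% in FISC, but these shares do not fix the share with opposite signs. The count of 5 therefore has no background here and is not read as a trait of the members. The ASC ratio minus the FISC ratio was −1.12 for Notch2, −1.01 for Notch1 and −0.83 for Dll1, each below 0 in ASC and above 0 in FISC. It was −0.17 for Hey1, which had the same signs close to 0, and 0.30 for Heyl, which was above 0 in ASC and below 0 in FISC.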

How the results depend on the processing

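Of 40 member ratios (10 genes in 4 comparisons), 38 kept their sign under every alternative tried; Notch3 in FISC and Dll1 in WT activation did not. No paired analysis was possible because each group is 1 library and none can be left out. In ASC, iKO over WT, the members' median of −0.65 became −0.80 with upper-quartile scaling, and the median difference between states −0.85 in place of −0.65. Of the members, 0 were at least 2-fold lower, against 3 with a pseudocount of 0.1, 4 with upper-quartile scaling and 1 with the length decile median subtracted, counts whose alternatives were chosen after seeing the data. Over all 11215 genes, 926 were at least 2-fold lower, against 1388, 1299 and 750 under these settings. Over all genes that scaling gave 603 higher genes in ASC in place of 980, and the pseudocount of 0.1 gave 194 higher and 217 lower genes in FISC in place of 76 and 81. The median for activation in WT (−1.80) was −1.93 with a pseudocount of 0.1, −1.48 without scaling and −1.40 with equal sums, and in iKO (−1.88) it was −1.99, −1.31 and −2.45. Higher genes numbered 4127 in WT with equal sums, and in iKO 3980 without scaling and 1398 with equal sums. With the peaks above the median −log10 p, 1 member had a peak nearby. The causes of these shifts were not tested. Without replicates or known depth, the precision of single FPKM values is unknown.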

Other observations

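Genes reported to depend on Notch in satellite cells were described as a further list of 9 symbols, 8 of them measured in ASC. All 8 had an ASC ratio, iKO over WT, below 0, with a median of −0.73 and 3 at least 2-fold lower. Over all genes 50.2% were below 0 and 8.26% at least 2-fold lower. These ratios were not set against locus length, and the loci of the 8 ran from 17.3 kb (Col6a1) to 164 kb (Megf10). Over all genes the longest length decile had a median of −0.48. Pax7, the defining transcription factor of these cells, stood at 6.19 FPKM in ASC iKO, against 28.3 in ASC WT. Sdc3, a surface proteoglycan, stood at 20.4 FPKM in ASC iKO, against 50.3 in ASC WT, and Col5a1, a collagen V chain, at 1.58 in ASC iKO, against 4.93 in ASC WT. In FISC the median of the 8 genes reported to depend on Notch was −0.04 and none passed 2-fold. From fresh to cultured cells, 7 of these 8 were at least 2-fold lower in iKO and in WT. This limit was passed by 29.2% of all genes in iKO and 21.8% in WT, and by 7 of the 9 satellite cell markers in each. Col5a3, another collagen V chain of the Notch-dependent list, stood at 1.04 FPKM in ASC iKO and 1.06 in ASC WT, against 104 in FISC iKO and 143 in FISC WT. Calcr, the calcitonin receptor of quiescent cells, stood at 0.512 FPKM in ASC iKO and 1.14 in ASC WT, against 43.8 in FISC iKO and 42.8 in FISC WT. Sdc3 was the exception, with a log2 ratio of ASC over FISC of 0.61 in iKO and 1.68 in WT. Fibroblast collagens were also far lower in culture, with Col1a1 at 0.946 FPKM in ASC iKO and 3.27 in ASC WT, against 42.9 in FISC iKO and 68.6 in FISC WT, and their part in the collagen values was not tested.

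Dtx4, a Deltex ligase gene chosen after its values were seen, stood at 2.94 FPKM in ASC iKO and 6.78 in ASC WT, against 70.9 in FISC iKO and 53.4 in FISC WT. Numb and Numbl, whose products restrain Notch receptors, were lower in culture as well, with Numb at 8.19 FPKM in ASC iKO and 9.41 in ASC WT, against 22.6 in FISC iKO and 19.5 in FISC WT, and Numbl at 4.50 in ASC iKO and 6.25 in ASC WT, against 23.5 in FISC iKO and 24.9 in FISC WT. Both were chosen after their values were seen. In the receptor turnover list that holds these genes, 10 were measured between the states. In WT, 4 were at least 2-fold lower in culture and 2 at least 2-fold higher, against 6 and 1 in iKO. Fbxw7 was higher in culture, with a log2 ratio of 1.17 in WT and 1.75 in iKO.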
